A study of Homo sapiens with 6 samples.

Results

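Alpha and beta tubulins were followed in T47D, a luminal human breast cancer cell line that has long been in culture. The 10 genes were taken by symbol from the deposited gene count table, which has 58735 genes. They are the alpha tubulins TUBA1A, TUBA1B, TUBA1C and TUBA4A and the beta tubulins TUBB, TUBB2A, TUBB2B, TUBB3, TUBB4B and TUBB6. All 10 had counts in every library and all 10 passed the low-count filter of the test. The study has 3 exposed libraries (titled CQ) and 3 control libraries (titled CK). The exposed cells had an experimental treatment whose nature the design text does not give, and the control cells were its controls. The series title names fine airborne particulate matter (PM2.5), and the protocol, worded alike for both groups, puts RNA extraction at 48 h of exposure. The word "exposed" is used in that sense, and no dose is stated in the labels. The replicates are called biological, with no word on separate cultures, so p-values measure the spread between these samples. All libraries come from 1 cell line.

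Microtubules are built from dimers of one alpha and one beta tubulin, added mainly at the fast-growing plus end, and they carry cargo in interphase and form the spindle in mitosis. Each class is encoded by several genes, called isotypes, whose proteins are nearly alike along most of their length and differ mainly in the acidic C-terminal tail, where most enzymes that modify microtubules act. TUBB and TUBB4B are widely expressed, and TUBB3 is best known from neurons. TUBA4A differs from TUBA1A, TUBA1B and TUBA1C in that it does not encode the terminal tyrosine. Cells also adjust tubulin mRNA to the amount of free tubulin: TTC5 recognises the first residues of tubulin as they leave the ribosome and leads to decay of the mRNA being translated.

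The coding sequences show both of these ends. The first 12 bases read ATGCGTGAGtgc in TUBA1A and ATGAGGGAAatc in TUBB4B, with the first codons in capitals. The codon in lower case was tgc in all 4 alpha members and atc in all 6 beta members. The last 60 coding bases below, from GENCODE 29 transcripts on GRCh38, encode the tails in which the isotypes differ and are shown for TUBA4A, which rose, TUBB4B and TUBB6, which fell, and the abundant beta gene TUBB, with the stop codon in capitals.
TUBA4A coding end: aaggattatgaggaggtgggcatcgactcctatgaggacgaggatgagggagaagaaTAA
TUBB coding end: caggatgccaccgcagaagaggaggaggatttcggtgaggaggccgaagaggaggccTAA
TUBB4B coding end: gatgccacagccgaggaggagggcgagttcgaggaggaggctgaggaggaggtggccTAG
TUBB6 coding end: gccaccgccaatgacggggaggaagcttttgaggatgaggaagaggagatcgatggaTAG
The last codon before the stop was tac or tat in TUBA1A, TUBA1B and TUBA1C and gaa in TUBA4A. Over these 60 bases, pairs of beta members were 36.7% to 96.7% identical (15 pairs, median 58.3%), against 81.3% to 98.2% (median 87.0%) over the coding sequence before them. Pairs of alpha members were 48.3% to 100% identical over the last 60 bases (6 pairs) and 84.8% to 97.6% before them. Alpha and beta members were 52.2% to 53.9% identical over the whole coding sequence (24 pairs).

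Of the 10 tubulin genes, 5 changed in exposed cells: TUBA4A rose, and TUBA1A, TUBA1B, TUBB4B and TUBB6 fell. The rise of TUBA4A was 1.67-fold and the 4 others were 0.677 to 0.817 of the control level. Among all 17337 genes tested, 43.9% passed the same threshold, 21.8% higher and 22.1% lower, so the share of tubulin genes that passed is near that of all genes. The threshold was an adjusted p under 0.05, from the quasi-likelihood test of edgeR and adjusted by Benjamini-Hochberg over all tested genes. The values of 6 of the 10 members did not overlap between the groups, 2 higher and 4 lower in exposed cells, against 51.9% of all tested genes (25.5% higher, 26.5% lower). The median log2 fold change of the 10 was -0.06, against -0.02 over all tested genes. The median size of the log2 fold change, whatever its sign, was 0.36 for the 10, against 0.33 over all tested genes.

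**Figure D1:**
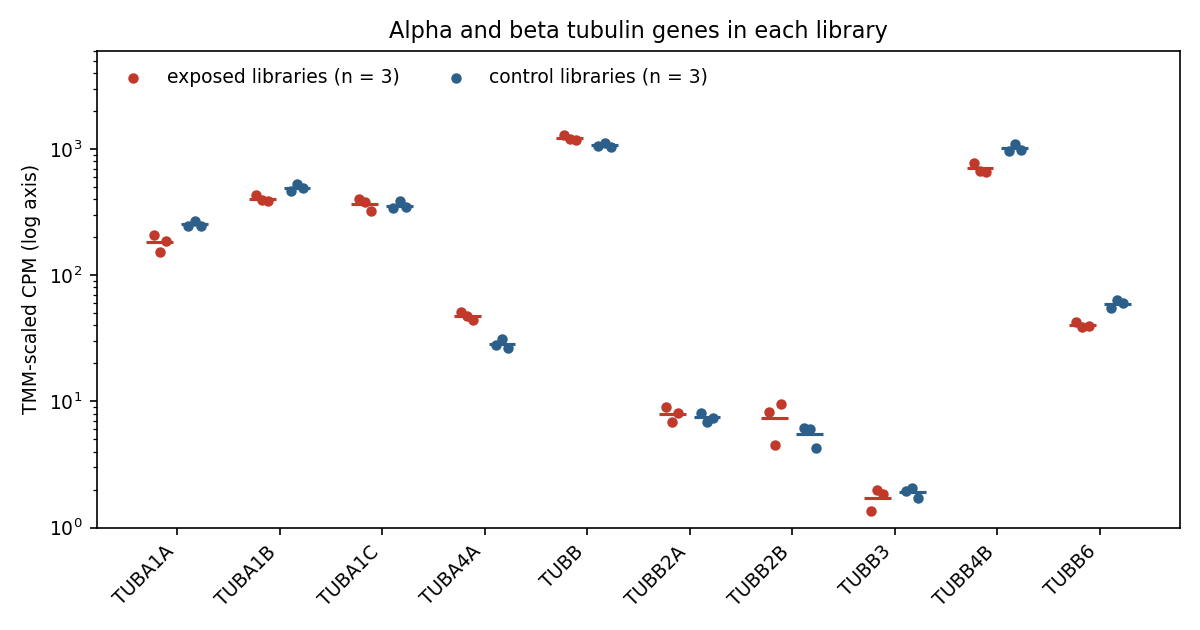
Level of each tubulin gene in each library, in counts per 1000000 counts of the library (CPM), scaled by trimmed-mean (TMM) factors, on a log axis; points are libraries, 3 exposed (left, red) and 3 control (right, blue), and lines are group means. TUBB4B and TUBB6 lie lower in all 3 exposed libraries and TUBA4A higher, while TUBB2A, TUBB2B and TUBB3 stay below 10 CPM in every library and overlap between groups.

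Total counts per library ran from 30970218 to 36878525. The 10 genes together took 0.277% to 0.304% of the total counts, not scaled by TMM factors, in exposed libraries and 0.329% to 0.352% in control libraries. In TMM-scaled CPM the groups overlapped, with sums of 2834 to 3208 CPM in exposed libraries and 3180 to 3513 CPM in control libraries. The luminal markers ESR1, PGR, GATA3, FOXA1, KRT8, KRT18, KRT19, EPCAM and CDH1 were all detected. Of these 9, 6 fell, against 22.1% lower among all tested genes, while GATA3, EPCAM and CDH1 did not pass. The 9 summed to 8122 to 10136 CPM in exposed libraries and 19209 to 21079 CPM in control libraries. Most of that sum was KRT8 (on average 3301 CPM in exposed and 8154 CPM in control libraries) and KRT19 (3473 and 7504 CPM). Of 13 markers of blood, vessel and connective tissue cells 6 could be tested, and all 13 summed to 79.6 to 82.9 CPM in exposed libraries and 69.6 to 78.5 CPM in control libraries. Among them COL1A2 was higher in exposed cells. It passed without exposed replicate 3 but not without any other single library (edgeR adjusted p = 0.060 to 0.087). In bulk RNA, fewer cells of one state and less RNA per cell cannot be told apart.

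TUBB4B, an abundant beta isotype (ENSG00000188229, GRCh38 chromosome 9, 137241213 to 137243707, plus strand), had 767, 672 and 662 CPM in exposed replicates 1 to 3, against 969, 1097 and 977 CPM in control replicates 1 to 3. Each exposed library was below each control library. Its log2 fold change was -0.53 ± 0.08 (SE), with an adjusted p of 3.1e-06 in edgeR's quasi-likelihood test. TUBB6, a less abundant beta isotype (ENSG00000176014, chromosome 18, 12307669 to 12344320, plus strand), had 42.4, 39.0 and 39.5 CPM in exposed libraries, against 55.0, 63.4 and 60.3 CPM in control libraries. The groups did not overlap, and the log2 fold change was -0.56 ± 0.08 (SE; edgeR adjusted p = 2.0e-06). TUBB6 overlaps AFG3L2 on the opposite strand, a gene that did not pass (log2 fold change 0.11, edgeR adjusted p = 0.32).

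TUBB, the most abundant tubulin gene by CPM in both groups (ENSG00000196230, chromosome 6, 30720201 to 30725426, plus strand), had 1286, 1209 and 1179 CPM in exposed libraries and 1060.2, 1124 and 1042 CPM in control libraries. Each exposed library was above each control library, yet TUBB did not pass the test. Its log2 fold change was 0.19 ± 0.08 (SE; edgeR adjusted p = 0.054), with an interval of 0.03 to 0.34 (±1.96 SE, not adjusted over genes). It passed in DESeq2 (adjusted p = 0.0087), in limma-voom (adjusted p = 0.029) and in edgeR without control replicate 2 (adjusted p = 0.019).

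The 3 other beta members were scarce and none passed. TUBB2A had 8.98, 6.82 and 8.12 CPM in exposed libraries and 8.12, 6.88 and 7.41 CPM in control libraries, with a log2 fold change of 0.10 ± 0.14 (SE). TUBB2B had 8.22, 4.49 and 9.51 CPM in exposed libraries and 6.19, 5.99 and 4.31 CPM in control libraries, and these groups overlapped because exposed replicate 2 was low. Its log2 fold change was 0.44 ± 0.23 (SE; edgeR adjusted p = 0.15), and it passed without exposed replicate 2 (log2 fold change 0.70, edgeR adjusted p = 7.4e-04) or with no low-count filter (adjusted p = 0.023). TUBB2A and TUBB2B are neighbours on chromosome 6 whose coding sequences are 98.1% identical, so their reads may have been split. Summed, they reached 17.2, 11.3 and 17.6 CPM in exposed libraries and 14.3, 12.9 and 11.7 CPM in control libraries, with overlapping groups.

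TUBB3, the beta isotype best known from neurons, was the lowest member, with 1.35, 1.97 and 1.83 CPM in exposed libraries and 1.96, 2.07 and 1.70 CPM in control libraries. Its log2 fold change was -0.15 ± 0.26 (SE), with an interval of -0.66 to 0.35. Of 10 neuronal markers only SYT1 could be tested (4.10 CPM in exposed and 4.33 CPM in control libraries on average), and DCX, STMN2, NEFL, NEFM and GAP43 were at 0 counts in all 6 libraries. The gene AC092143.1, a readthrough on the same strand that covers part of TUBB3, was also at 0 counts in all 6 libraries. Of all stretches of 100 bases in TUBB3 transcripts, 29.7% also occur in AC092143.1, so reads from them could belong to either gene, and what the counting did with them was not tested.

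Among alpha tubulins, TUBA4A (ENSG00000127824, chromosome 2, 219249711 to 219278170, minus strand) had 51.3, 47.2 and 44.2 CPM in exposed libraries, against 28.0, 31.2 and 26.3 CPM in control libraries. All exposed libraries were higher, and the log2 fold change was 0.74 ± 0.09 (SE; edgeR adjusted p = 8.1e-08), the smallest adjusted p of the 10 genes. TUBA4A overlaps the kinase gene STK16 by 627 bases on the opposite strand, and 12.4% of its stretches of 100 bases occur in STK16 transcripts. STK16 rose as well (log2 fold change 0.48, edgeR adjusted p = 9.9e-06), and its part in the TUBA4A count was not tested. The 3 genes with the log2 CPM most like TUBA4A over the 6 libraries, of 14194 genes compared, were UCP2, a mitochondrial carrier, TNFSF9, a ligand of the TNF family, and ZYX, a focal adhesion protein. Their Pearson's r with TUBA4A was 0.9996, 0.9993 and 0.9992, a description over 2 groups of 3 libraries.

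TUBA1A, TUBA1B and TUBA1C lie together on chromosome 12. TUBA1A (ENSG00000167552, 49184796 to 49189324, minus strand), a main alpha isotype of neurons, had 206, 154 and 186 CPM in exposed libraries, against 246, 267 and 246 CPM in control libraries. It was lower in every exposed library, with a log2 fold change of -0.47 ± 0.08 (SE; edgeR adjusted p = 2.8e-05). TUBA1B (ENSG00000123416, 49127782 to 49131397, minus strand), the most abundant alpha isotype here, had 435, 394 and 384 CPM in exposed libraries, against 466, 531 and 488 CPM in control libraries. The groups did not overlap, and the log2 fold change was -0.29 ± 0.08 (SE; edgeR adjusted p = 0.0029). Its call ended without exposed replicate 3 (log2 fold change -0.24, edgeR adjusted p = 0.055; range over the settings tried 0.0014 to 1, the highest in a test against a 1.5-fold change).

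TUBA1C (ENSG00000167553, 49188736 to 49274603, plus strand) had 401, 376 and 320.0 CPM in exposed libraries and 340.1, 385 and 344 CPM in control libraries. The groups overlapped and the gene did not pass (log2 fold change 0.04 ± 0.08 SE, interval -0.12 to 0.20, edgeR adjusted p = 0.74). TUBA1C overlaps TUBA1A by 589 bases on the opposite strand. Over their coding sequences, TUBA1A and TUBA1B were 97.2% identical and TUBA1B and TUBA1C 96.8%.

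**Figure D2:**
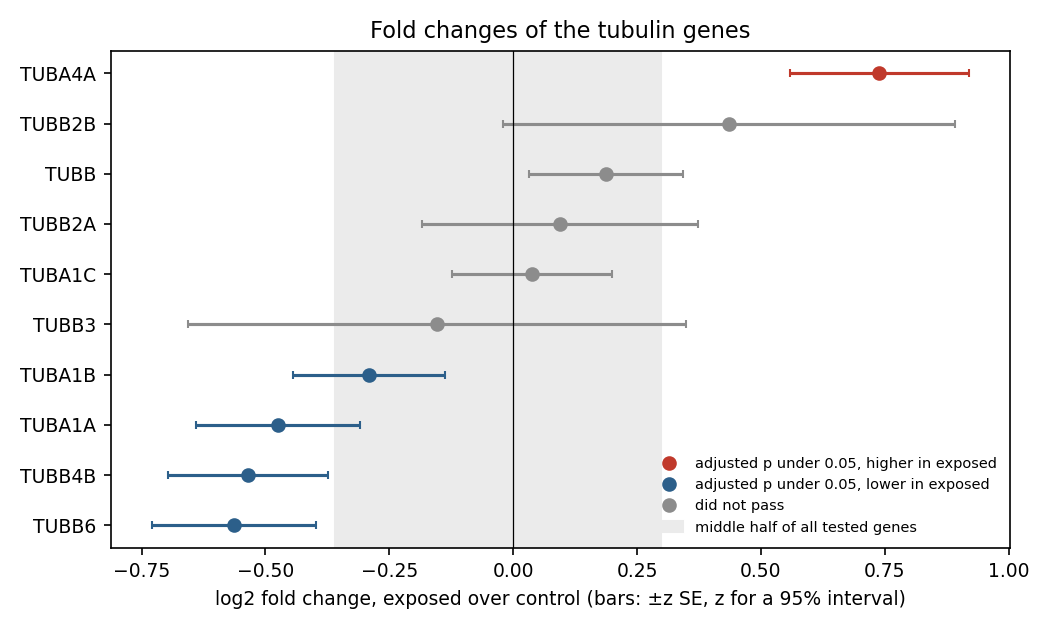
Log2 fold change of each tubulin gene, exposed over control, with bars of ±1.96 SE; colour gives the edgeR call and the grey band spans the middle quartiles of all tested genes (-0.36 to 0.30). TUBA4A and TUBB2B lie right of the band, TUBB6, TUBB4B and TUBA1A lie left of it, and TUBB2B, TUBB, TUBB2A, TUBA1C and TUBB3 did not pass.

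Compared per length, as CPM per kb of the gene length in the table, the most abundant gene was TUBB in exposed cells and TUBB4B in control cells. That change of order rests on the gene lengths used, 3359 bases for TUBB and 2111 bases for TUBB4B. By CPM with no division by length, TUBB was the most abundant in both groups. TUBB had 365 ± 16.5 CPM per kb in exposed libraries and 320.2 ± 12.8 in control libraries (SD, n = 3 each). TUBB4B had 332 ± 27.4 CPM per kb in exposed libraries and 481 ± 34.0 in control libraries (SD, n = 3 each). The ratio of TUBB4B to TUBB was 0.949, 0.885 and 0.893 in exposed replicates 1 to 3, against 1.45, 1.55 and 1.49 in control replicates 1 to 3. These groups did not overlap, which follows from TUBB4B being lower and TUBB higher in every exposed library. For that reason the two-sided exact permutation test had to give p = 0.1, the smallest that 3 libraries against 3 allow. It adds no evidence to the values of the 2 genes.

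In exposed cells the order per kb was TUBB, TUBB4B, TUBA1B, TUBA1C, TUBA1A, TUBA4A, TUBB6, TUBB2A, TUBB2B and TUBB3. The levels of TUBB and TUBB4B overlapped between libraries there, as did those of TUBB2A and TUBB2B. In control cells the order was TUBB4B, TUBB, TUBA1B, TUBA1C, TUBA1A, TUBB6, TUBA4A, TUBB2A, TUBB2B and TUBB3, and only TUBA1C and TUBA1A overlapped among neighbours. TUBA4A stood above TUBB6 in exposed cells, at 11.7 ± 0.877 against 9.79 ± 0.445 CPM per kb, and below it in control cells, at 6.99 ± 0.615 against 14.5 ± 1.03 CPM per kb (SD, n = 3 each). The lowest member, TUBB3, had 0.388 ± 0.0729 CPM per kb in exposed libraries and 0.431 ± 0.0429 in control libraries (SD, n = 3 each).

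As a share of the beta members, counted per kb, TUBB made up 51.1% ± 0.946 in exposed libraries and 39.0% ± 0.748 in control libraries (SD, n = 3 each). TUBB4B made up 46.4% ± 0.907 in exposed libraries and 58.4% ± 0.804 in control libraries. TUBB6 made up 1.37% ± 0.0294 and 1.76% ± 0.0827 of the beta members in exposed and control libraries. Among alpha members, TUBA1B held 44.1% ± 0.677 in exposed and 46.7% ± 0.535 in control libraries, TUBA1A 20.7% ± 2.27 in exposed and 24.96% ± 0.422 in control libraries, and TUBA1C 30.7% ± 2.09 in exposed and 26.0% ± 0.278 in control libraries. TUBA4A held 4.54% ± 0.108 of the alpha members in exposed libraries and 2.36% ± 0.114 in control libraries. The shares are descriptions with no test, and those of 1 class depend on each other. They also rest on the gene lengths used. With no division by length, TUBB made up 61.8% of the beta members and TUBB4B 35.3% in exposed libraries. In control libraries these shares were 49.7% and 46.8%.

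**Figure D3:**
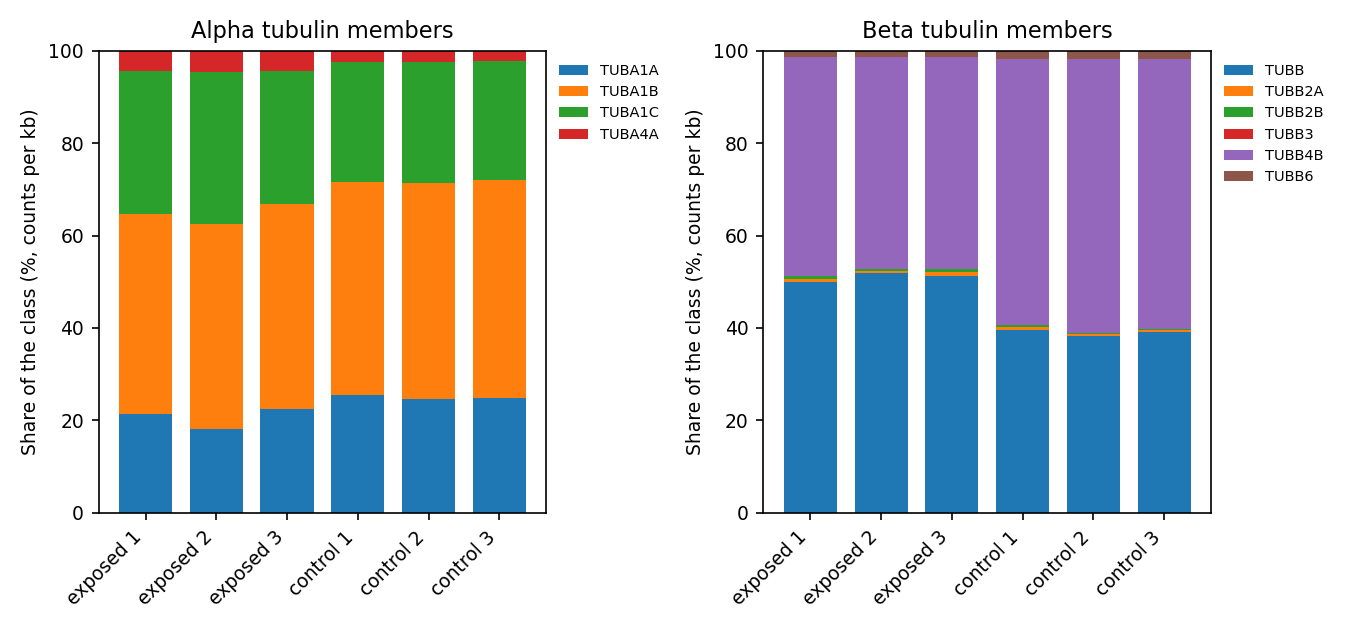
Share of each gene in the alpha members (left) and the beta members (right), in percent of CPM per kb, with 1 bar per library, exposed libraries left of control libraries. TUBB4B takes 45.9% to 47.4% of the beta bar in exposed libraries and 57.7% to 59.3% in control libraries, and TUBA4A takes 4.47% to 4.67% and 2.23% to 2.43% of the alpha bar in exposed and control libraries.

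Summed per kb, the 4 alpha members reached 281, 248 and 242 CPM per kb in exposed libraries and 282, 317 and 289 CPM per kb in control libraries. The 6 beta members reached 766, 694 and 684 CPM per kb in exposed libraries and 796, 877 and 795 CPM per kb in control libraries. All 3 exposed sums lay below all 3 control sums in both classes, exposed replicate 1 by a small margin. The exposed mean was 0.867 of the control mean for alpha and 0.869 for beta members. Summed in CPM with no division by length, the groups overlapped: alpha members reached 1094, 971 and 934 CPM in exposed libraries and 1079.6, 1214 and 1104 CPM in control libraries, and beta members 2114, 1933 and 1900.2 CPM in exposed libraries and 2101, 2300.0 and 2093 CPM in control libraries. No test was made on these sums.

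Tubulin genes share sequence with each other, with pseudogenes and with overlapping genes on the opposite strand. How reads from such stretches were counted was not tested. Of 37 tubulin pseudogene rows in the table, 24 had no count in any library, and all pseudogene counts together came to 0.757% to 0.957% of the members' counts in a library. The 6 pseudogenes that could be tested did not pass, TUBBP5 (log2 fold change 0.11) and TUBBP1 (0.14) being the most abundant. The share of stretches of 100 bases that also occur in transcripts of another gene was highest in TUBB2A, at 48.9%, and TUBB2B, at 46.0%, and lowest in TUBB4B, at 3.27%. It was 28.3% in TUBA1B, mostly shared with the antisense gene AC011603.2, which had 4 to 11 counts per library. It was 9.34% in TUBA1A, 17.3% in TUBA1C, 15.2% in TUBB and 13.2% in TUBB6. In TUBB6 all of these stretches were shared with AFG3L2, on the opposite strand. The antisense gene AL662797.1 shared 12.8% of the TUBB stretches, and the antisense gene AC125611.3 shared 10.8% of the TUBA1C stretches.

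**Figure D4:**
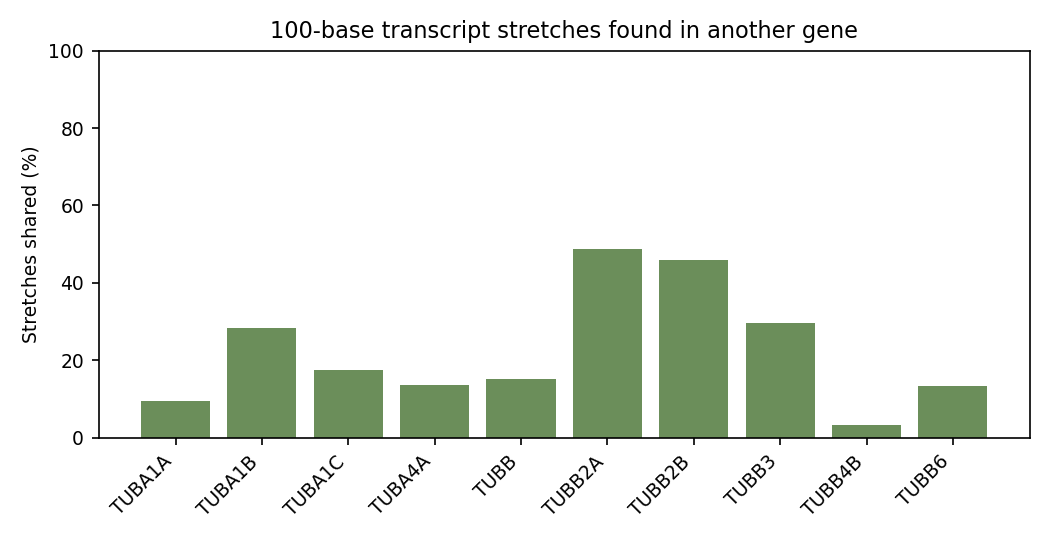
Percentage of all distinct stretches of 100 bases in the GENCODE 29 transcripts of each tubulin gene that also occur, on either strand, in transcripts of another gene. TUBB2A and TUBB2B have the tallest bars (48.9% and 46.0%) and TUBB4B the shortest (3.27%).

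RefSeq (GRCh38.p14) gives 15 promoter windows for the 10 genes, each from 250 bases before to 50 after a start site. They were searched on both strands for GCGTG (the core of the aryl hydrocarbon receptor element), TGACNNNGC (the core of the antioxidant response element), CCAAT and TATAAA, and no matches to different motifs overlapped. Of the 3 TUBA1C windows 2 overlap each other and share a CCAAT site, which is counted in both. CCAAT occurred in 9 of 15 windows, in 7 of the 10 genes, against 34.6% of 35116 windows of all genes. GCGTG occurred in 5 of 15 windows (4 genes), against 36.5% of all windows, TGACNNNGC in 2 (13.3% of all windows) and TATAAA in 1 (11.5%). The windows of TUBA4A, which rose, and of TUBA1A and TUBB4B, which fell, are shown with matches in capitals, GCGTG in TUBA4A and CCAAT or its complement in the others. GCGTG also occurred in TUBB, TUBB2A and TUBB2B, and CCAAT in TUBA1C, TUBB, TUBB2B and TUBB3, none of which passed, as well as in TUBB6, which fell. TUBA1B, which fell, had no match.
TUBA4A promoter, chr2:219253869-219254168, minus strand: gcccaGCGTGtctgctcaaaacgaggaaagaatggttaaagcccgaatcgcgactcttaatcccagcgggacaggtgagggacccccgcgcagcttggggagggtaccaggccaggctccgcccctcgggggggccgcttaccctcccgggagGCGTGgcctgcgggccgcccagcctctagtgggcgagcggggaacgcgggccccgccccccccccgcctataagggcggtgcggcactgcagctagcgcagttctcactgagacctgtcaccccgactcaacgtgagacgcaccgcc
TUBA1A promoter, chr12:49189031-49189330, minus strand: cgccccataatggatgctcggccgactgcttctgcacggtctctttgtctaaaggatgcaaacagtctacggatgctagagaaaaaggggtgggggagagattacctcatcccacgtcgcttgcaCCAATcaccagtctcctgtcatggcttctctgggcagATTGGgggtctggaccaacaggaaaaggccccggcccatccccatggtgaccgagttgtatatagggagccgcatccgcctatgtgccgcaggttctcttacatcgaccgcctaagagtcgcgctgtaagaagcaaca
TUBB4B promoter, chr9:137241037-137241336, plus strand: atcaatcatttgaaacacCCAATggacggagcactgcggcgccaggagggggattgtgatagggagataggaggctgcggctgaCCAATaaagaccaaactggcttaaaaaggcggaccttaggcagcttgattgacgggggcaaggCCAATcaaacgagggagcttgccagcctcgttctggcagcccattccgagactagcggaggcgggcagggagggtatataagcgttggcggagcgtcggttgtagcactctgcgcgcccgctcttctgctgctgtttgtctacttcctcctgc
A match is a run of letters and was not tested as a binding site.

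The other tubulin genes and the genes that fold, modify and organise tubulin were counted in 10 further lists. Of 125 such genes tested, 44 rose and 17 fell (48.8%, against 43.9% of all genes), with a median log2 fold change of 0.13. Among all tested genes 21.8% were higher and 22.1% lower. The share that passed ran from 33.3% to 60.7% over the 10 lists, each of few genes. Of 12 other tubulin genes 6 could be tested, and 2 rose (33.3%). TUBE1, epsilon-tubulin of centrioles, was at 1.004 ± 0.15 and TUBG2, a gamma-tubulin that nucleates microtubules, at 0.57 ± 0.10 (log2 fold change ± SE). The main gamma-tubulin gene TUBG1 was at -0.09 ± 0.07, delta-tubulin TUBD1 at -0.13 ± 0.15, and the beta isotypes TUBB4A and TUBB8 at 0.18 ± 0.19 and 0.28 ± 0.29, and none of these passed. TUBAL3 had no count, and TUBA3C, TUBA3D, TUBA3E, TUBA8 and TUBB1 averaged at most 0.248 CPM in either group.

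New tubulin is folded by prefoldin, the CCT chaperonin and a set of cofactors. Of 8 CCT subunits 4 fell and none rose (50% passed, against 43.9% of all genes, median log2 fold change -0.18). CCT2 was at -0.46 ± 0.07, CCT6A at -0.42 ± 0.07 and CCT3 at -0.36 ± 0.08 (SE). Of 6 prefoldin subunits 3 rose and none fell (50% passed, median 0.24), PFDN2 at 0.34, PFDN5 at 0.30 and PFDN4 at 0.30. The call of PFDN4 ended without exposed replicate 3 (adjusted p = 0.17), control replicate 1 (0.095) or control replicate 3 (0.053). Of 7 cofactor genes 3 rose and 1 fell (57.1% passed, median -0.03). ARL2, a GTPase that works with the cofactors, was at 0.38, TBCB at 0.32 and TBCA at 0.20, and TBCD at -0.72 ± 0.08 (SE). TBCA did not pass without exposed replicate 1 (adjusted p = 0.29), control replicate 1 (0.14) or control replicate 3 (0.082), and without control replicate 1 a second cofactor passed as lower (2 against 1).

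In the list for tubulin mRNA decay, SCAPER, a partner of TTC5, was at 0.36 ± 0.15 (SE), while TTC5 itself was at 0.09 ± 0.11 and CNOT11, a subunit of the CCR4-NOT deadenylase, at -0.20 ± 0.09, neither of which passed. SCAPER was the 1 call among the 3 genes of the list (33.3% passed, against 43.9% of all genes). It did not pass without exposed replicate 1 (edgeR adjusted p = 0.13), exposed replicate 3 (0.0985), control replicate 2 (0.168) or control replicate 3 (0.0979). With all libraries and no low-count filter it did not pass either (edgeR adjusted p = 0.0681). Without exposed replicate 2 or control replicate 2, 1 gene of this list passed as lower, against none with all libraries.

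Of 21 genes for enzymes that modify tubulin 6 rose and 3 fell (42.9% passed, against 43.9% of all genes, median log2 fold change 0.13). SIRT2, a deacetylase that acts on alpha-tubulin, rose to 69.9 CPM in exposed cells, against 36.7 CPM in control cells (0.93 ± 0.09, SE). The tubulin polyglutamylases TTLL4 and TTLL1 rose by 0.66 and 0.56, and TTLL5, another, was at -0.43. VASH1, a carboxypeptidase that removes the tyrosine of alpha-tubulin, was at -0.54 ± 0.10 (SE), and TTLL12, a relative of the ligase TTL, at -0.32.

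Genes of microtubule nucleation rose in 6 of 17 cases and none fell (35.3% passed, against 43.9% of all genes, median log2 fold change 0.17). TUBGCP3, a core subunit of the gamma-tubulin ring complex, averaged 56.4 CPM in exposed cells and 27.1 CPM in control cells (1.06 ± 0.09, SE), with TUBGCP6 at 0.51 and CDK5RAP2, which anchors the complex at centrosomes, at 0.40. Of 17 stabilisers and plus-end proteins 8 rose and 1 fell (52.9% passed, median 0.23). MAP1B, a microtubule-associated protein of neurons, was at 2.45 ± 0.20 (SE), or 6.84 CPM in exposed and 1.25 CPM in control cells, and the plus-end proteins CLIP1 and MAPRE3 were at 0.95 and 0.74. MAPT, which encodes tau, was at -0.66 ± 0.09 (SE).

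Of 12 destabilisers and severing enzymes 3 rose and 3 fell (50% passed, against 43.9% of all genes, median log2 fold change 0.02). TPPP was at 1.16 ± 0.20 (SE), although its protein is known for binding and bundling microtubules. KATNAL1, a katanin-like severing enzyme, was at 0.37, the severing enzyme gene FIGNL1 at -0.54, and the depolymerising kinesins KIF18A and KIF2C at -0.50 and -0.21. Without control replicate 2 or control replicate 3, 1 gene of this list was higher in place of 3, and KATNAL1 then had an edgeR adjusted p of 0.0774 or 0.0945. KIF2C did not pass when any 1 library was left out (edgeR adjusted p = 0.064 to 0.14). With all 6 libraries it did not pass in edgeR with DESeq2-type size factors (adjusted p = 0.0509) or no low-count filter (0.0885).

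Of 28 motor genes 12 rose and 5 fell (60.7% passed, against 43.9% of all genes, median log2 fold change 0.16). KIF5B, the heavy chain of conventional kinesin, was at 0.63 ± 0.08, DCTN4, a dynactin subunit, at 0.61 ± 0.08 and KLC4, a kinesin light chain, at 0.58 ± 0.09 (SE). The light chains DYNLL1 and DYNLL2, which dynein shares with other complexes, were at -0.52 and -0.34, and the kinesin KIF13A at -0.48. Without exposed replicate 2 or control replicate 3, 3 motor genes were lower in place of 5. The lists were not compared with each other or with other genes by a test.

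**Figure D5:**
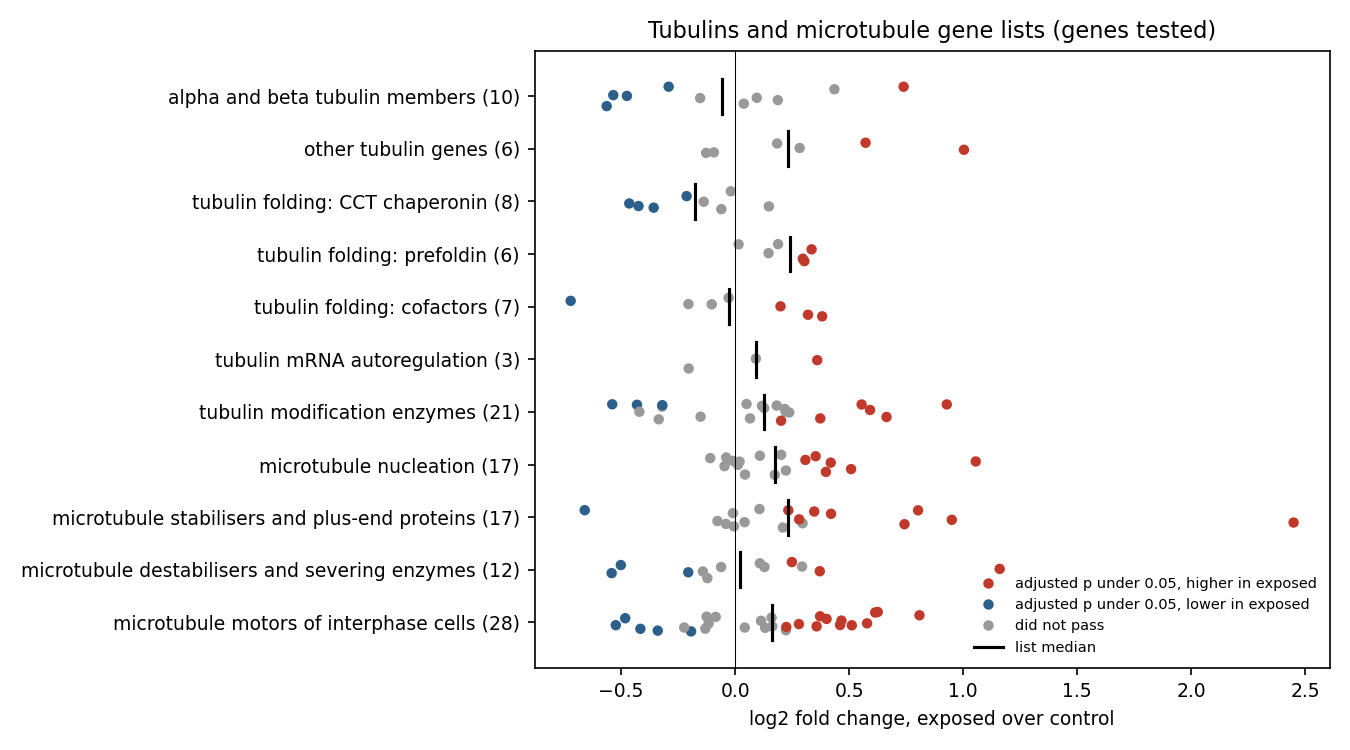
Log2 fold change, exposed over control, of every tested gene in the tubulin list and the 10 microtubule lists, with the number tested in parentheses; points are genes coloured by the edgeR call and black lines are list medians. The CCT chaperonin list has the lowest median (-0.18) and the prefoldin list the highest (0.24).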

How the data were processed

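Raw read counts per gene, as deposited by the authors, were used for 6 libraries. The genome build was GRCh38, per the submitters' processing notes. Libraries came from a NEBNext Ultra kit and a NovaSeq run, per the labels' protocols. Aligner, counter, annotation release and strand setting: not given in the sources used here. Gene lengths are other values of the authors' deposited table. Groups came from sample titles, and the 10 members have the same coordinates in GENCODE 29.

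The test was that of edgeR 4.0.16 under R 4.3.3 (low counts removed by filterByExpr with minimum count 10 and minimum total 15, TMM factors 0.948 to 1.04, robust quasi-likelihood fit, exposed over control). The biological coefficient of variation was 9.61%. The SE is the log2 fold change divided by the square root of F. The test was tried on simulated counts first. Chi-square per degree of freedom between libraries of 1 group was 7.68 to 16.4, beyond counting noise. TBCE has 2 rows, of which the one with more counts was used. Pairwise identities are from global alignment of the coding sequence of 1 transcript per gene.

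The members and lists were chosen with earlier results of these data known. All members are named, and of each other list up to 3 genes per direction with the smallest adjusted p, apart from a few items that are not reported here. The alternatives were DESeq2-type size factors, no or a stricter low-count filter (1 CPM in 3 libraries), DESeq2 1.42.0, limma-voom (limma 3.58.1), a replicate block, a test against a 1.5-fold change, fewer genes, and leaving out each library.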

Additional observations from a re-analysis of the deposited data

How the results depend on the processing

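All members kept the direction of their fold change under the 15 alternatives, with the exception of TUBA1C, which did not pass and ranged from -0.03 to 0.14. The number of members called higher was 2 in place of 1 with no low-count filter, in DESeq2 and in limma-voom, and 1 to 2 when single libraries were left out. Against a 1.5-fold change, no member passed (0 higher, 0 lower; 5 pass at an adjusted p under 0.05 without that minimum), background calls over all genes numbered 1498 (715 higher, 783 lower) and 6 genes of the microtubule lists (6 higher, 0 lower). This test asks for a larger change by construction. The log2 fold change of TUBB2B ranged from 0.23 to 0.70 when single libraries were left out, and that of TUBB4B from -0.60 to -0.47.

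Replicate numbers are shared between the groups. Same-numbered libraries had correlations of -0.0804 to 0.00546 in their deviations from the group means. With so few libraries, these values cannot decide whether same-numbered libraries were handled together. With the replicate number as a block, 5 members passed as before (1 higher, 4 lower), and background calls numbered 6779 in place of 7610. Of the 47 other named genes, none changed direction among called values, and a call of the edgeR test was lost in 80 of 704 values, 34 of them in the test against a 1.5-fold change. Without division by length, the difference in the share of TUBB6 between exposed and control cells was -0.72 percentage points in place of -0.39, which the change of scale makes. TUBB3 had the lowest counts of the members, 46 to 73 per library, and an SE of 0.26.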

Other observations

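Genes that overlap tubulin genes on the opposite strand were read for their own values, and were chosen after these were seen. AC010173.1, an antisense gene inside TUBA1C, had 84, 51 and 58 counts in exposed libraries and 47, 22 and 25 counts in control libraries, a log2 fold change of 1.14 (edgeR adjusted p = 0.0037). PSMG4, which encodes a proteasome assembly chaperone and overlaps TUBB2B by 328 bases, had 738, 619 and 826 counts in exposed libraries and 1103, 1099 and 1128 counts in control libraries, a log2 fold change of -0.51 (edgeR adjusted p = 5.2e-05). TUBB2B itself did not pass.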
